A study of Gallus gallus with 9 samples.

Results

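The collagen genes are described here in 2 cell fractions of the chicken embryonic gonad. A collagen gene was any gene whose platform symbol reads COL, a number, A and a number, and each gene was read from its brightest probe set, by mean over all 9 arrays. This gave 41 collagen genes of 13009 measured genes, with 121 probe sets in all: 9 fibrillar collagens, 8 collagens of basement membranes and 24 others. A fraction labelled PGC (3 arrays, replicates 1 to 3) was compared with a fraction labelled GSC (6 arrays, replicates 1 to 6). Both came from gonads of WL embryos at 6.5 days and were separated by magnetic-activated cell sorting. PGC is the usual short form of primordial germ cell, while the labels leave GSC and WL unexplained and give neither embryo sex nor sorting antigen. They also do not say if each replicate was a pool of its own, so the p-values reflect variation among these preparations that may be only technical.

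Each value is a log2 expression value (RMA) of 1 probe set in 1 Affymetrix Chicken Genome Array. A change is the PGC mean minus the GSC mean on that log2 scale, and it was called where the adjusted p of limma over all 13009 genes was under 0.05. The 95th percentile of the 57 reporter probe sets (for sequences foreign to the chicken) was 2.88 and is called the reporter mark. Where arrays of the lower fraction lay below it, the fold is a lower bound with those arrays set at the mark. All 10 germ cell markers examined were higher in PGC (22.5% of all genes were). Of 13 gonadal somatic markers 10, such as LHX9 and GATA4, were lower (19.5% of all genes). PGC replicate 3 stood nearer to the GSC arrays (r 0.956 to 0.969 over all probe sets) than PGC replicates 1 and 2 did (0.930 to 0.950), and it is named below where it decides an overlap or a call.

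Collagens are secreted or membrane-bound proteins built from 3 chains that wind into a triple helix. Fibrillar collagens assemble into the fibres of connective tissue and are made mostly by mesenchymal cells, whereas type IV collagen forms the sheet-like network of basement membranes under epithelia, around vessels and around the cords of the gonad. Other members decorate fibrils, form beaded microfibrils or span the cell membrane.

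Of the 41 collagen genes, 22 were lower in PGC, 3 were higher and 16 did not pass, so that 53.7% of the family was lower. Over all 13009 genes, 19.5% were lower and 22.5% were higher. The median change of the family was -0.45, against -0.02 over all genes. In 19 collagens all 3 PGC arrays lay below all 6 GSC arrays (16.7% of all genes did so), and in 3 they lay above (19.7% of all genes). A called fall of at least 2-fold was found in 17 collagens (6.06% of all genes) and a called rise of that size in 1 (8.05% of all genes). In bulk preparations, fewer cells of a type and less RNA per cell cannot be told apart.

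**Figure D1:**
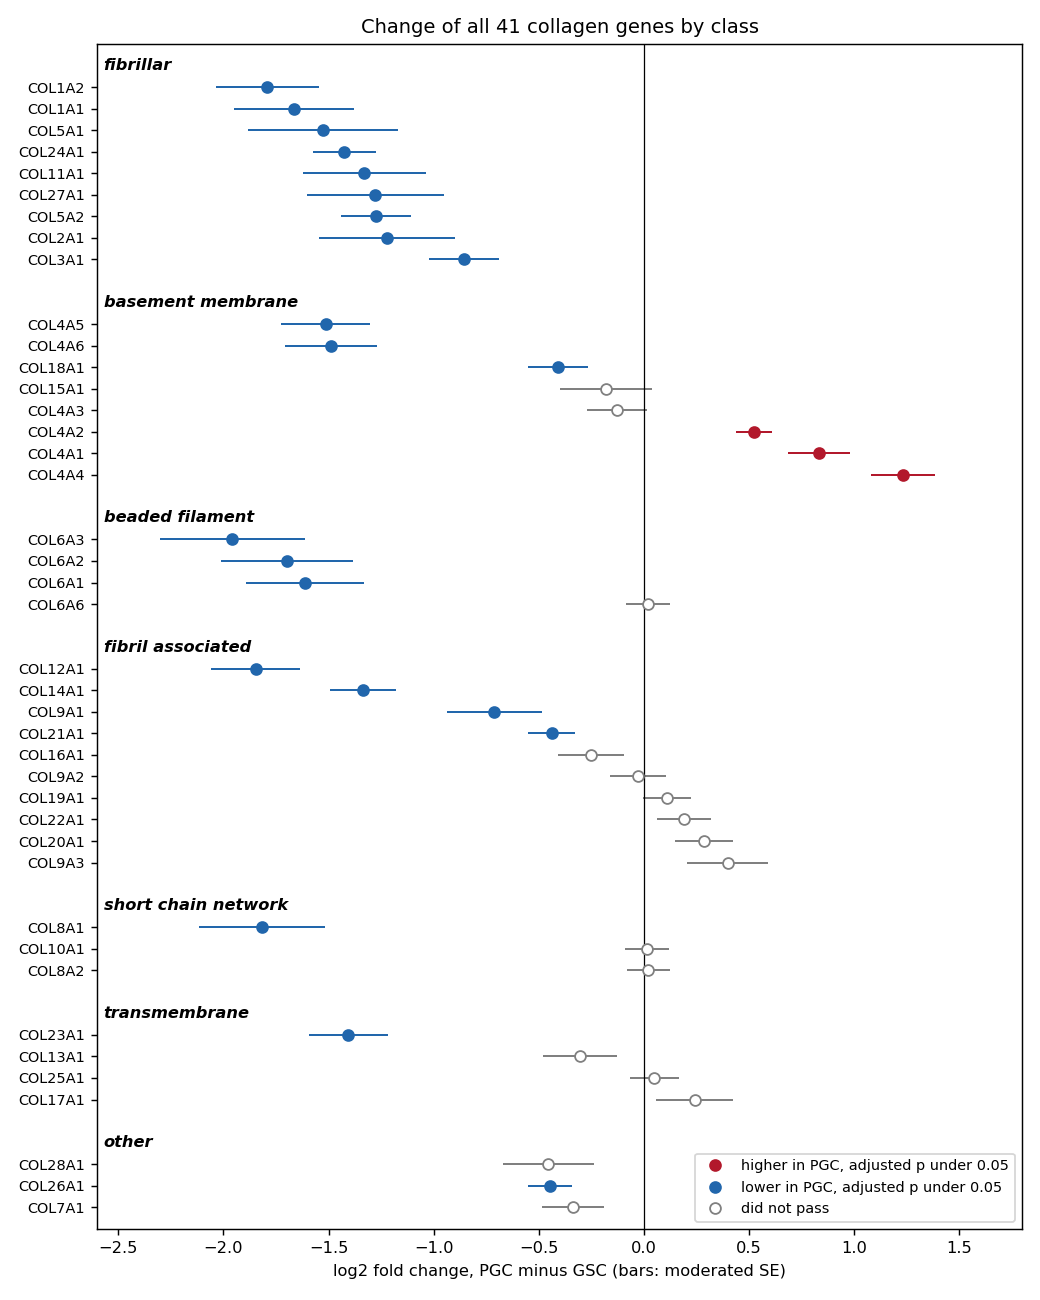
Log2 fold change (PGC minus GSC, x axis) of all 41 collagen genes, grouped by class, with limma's moderated standard error as bars; filled points passed at an adjusted p under 0.05. All 9 fibrillar genes lie left of 0, while the basement membrane class runs from -1.51 for COL4A5 to 1.23 for COL4A4.

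All 9 fibrillar collagens were lower in PGC (19.5% of all genes), by 0.86 to 1.79 on the log2 scale with a median change of -1.33. A called fall of at least 2-fold was found in 8 of them (6.06% of all genes). COL1A1, which encodes the major chain of type I collagen, measured 8.07, 8.15 and 9.64 in the 3 PGC arrays, against 10.07 (lowest), 10.31 (median) and 10.39 (highest) in GSC. All PGC arrays were below all GSC arrays, a 3.17-fold difference (log2 fold change -1.66 ± 0.28 SE, limma adjusted p = 7.232e-04). COL1A2, the second chain of the same trimer, measured 7.36, 7.88 and 8.85 in PGC, against 9.71, 9.83 and 9.95 in GSC (lowest, median and highest). It was 3.46-fold lower, again with no overlap between the fractions.

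The partners of type I collagen in mixed fibrils followed. COL3A1, the single chain of type III collagen in reticular fibres, measured 9.43, 9.66 and 10.29 in PGC and 10.47 to 10.77 in GSC, and fell by 0.86 ± 0.17 (SE, limma adjusted p = 0.0016). COL5A1 and COL5A2 encode chains of type V collagen, which starts fibrils and limits their width. COL5A1 measured 7.06, 7.16 and 9.10 in PGC, against 9.21 to 9.41 in GSC. PGC replicate 3 thus lay just under the lowest GSC array, and the change of -1.52 ± 0.36 (adjusted p = 0.0051) became -2.19 without it. Without PGC replicate 1 the change was -1.17 (limma adjusted p = 0.0322). COL5A2 measured 5.98, 6.33 and 6.84 in PGC and 7.50 to 7.87 in GSC, a fall of 1.28 ± 0.17 in which the PGC arrays stood closer together.

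The fibrillar collagens best known from cartilage were measured in both fractions as well. COL2A1, the chain of type II collagen, gave 5.58, 5.04 and 6.99 in PGC, against 6.99, 7.01 and 7.38 in GSC (lowest, median and highest). PGC replicate 3 reached the GSC range, with the same value as GSC replicates 4 and 6, and the call (-1.22 ± 0.32 SE, limma adjusted p = 0.0100) was lost without PGC replicate 1 or PGC replicate 2, where the change came down as far as -0.81. COL11A1, a chain of type XI collagen that copolymerises with type II, measured 4.01, 4.18 and 5.64 in PGC and 5.70 to 6.14 in GSC (-1.33 ± 0.29). COL27A1 measured 2.96, 2.64 and 4.49 in PGC and 4.37 to 4.96 in GSC, so the fractions overlapped through PGC replicate 3 alone. The fold was at least 2.29, and the fitted change was -1.28, or -1.84 without PGC replicate 3. COL24A1, a fibrillar collagen described in forming bone of the mouse, was at 6.05, 6.25 and 6.58 in PGC, clearly apart from 7.38 to 8.02 in GSC (-1.43 ± 0.15, adjusted p = 2.960e-05).

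Of the 9 measured chondrocyte markers examined, 3 were lower in PGC (19.5% of all genes), 1 was higher (22.5%) and 5 did not pass. Their summed log2 level was 26.32 to 27.45 in PGC and 29.14 to 30.29 in GSC. HAPLN1, the link protein of cartilage proteoglycan, measured 4.15, 4.65 and 5.84 in PGC and 5.84 to 6.42 in GSC (-1.29 ± 0.29 SE). LECT1, which encodes chondromodulin, measured 4.54, 4.46 and 4.78 in PGC and 5.74 to 6.57 in GSC (-1.52 ± 0.19). Both were called lower and lay above the reporter mark in all 9 arrays. SOX6, the remaining marker called lower, lay below the reporter mark of 2.88 in all 9 arrays. So did ACAN, the cartilage proteoglycan, and MATN1 and EPYC, further cartilage matrix genes. MATN3, the marker called higher, was below the mark in 2 of 3 PGC arrays and in all 6 GSC arrays. The part of cartilage cells in the COL2A1 and COL11A1 values was not tested.

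**Figure D2:**
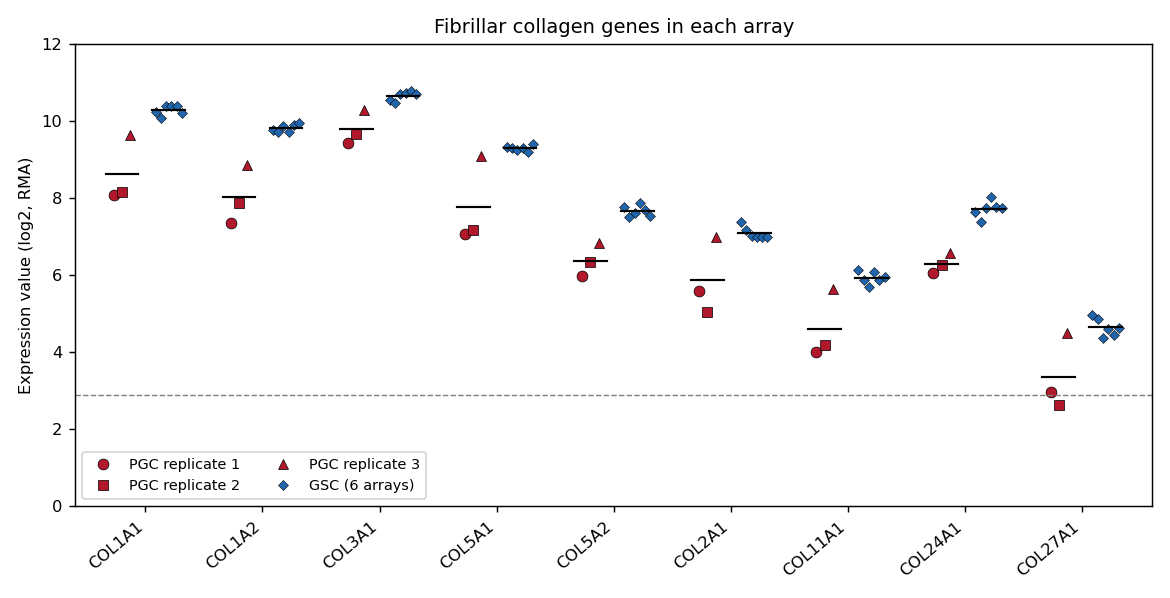
Log2 expression value (y axis) of the 9 fibrillar collagens in each array. PGC replicates 1 to 3 are a red circle, square and triangle, and the 6 GSC arrays are blue diamonds. Short black lines are means and the dashed line is the reporter mark of 2.88. PGC replicate 3 is the highest PGC array for all 9 genes, and it reaches the GSC range for COL2A1 and COL27A1 only.

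The basement membrane class held calls in both directions. Of its 8 genes, 3 were higher in PGC (22.5% of all genes), 3 were lower (19.5%) and 2 did not pass. Its median change was -0.15. Type IV collagen has 6 chains in vertebrates, which assemble into trimers of COL4A1 with COL4A2, of COL4A3, COL4A4 and COL4A5, and of COL4A5 with COL4A6. In mammals the genes lie in head-to-head pairs. In the RefSeq gene table of the chicken (assembly GRCg7b) COL4A1 and COL4A2, COL4A3 and COL4A4, and COL4A5 and COL4A6 are likewise neighbours with no other protein-coding gene between them.

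The chains of the common trimer were higher in PGC. COL4A1 measured 5.87, 5.71 and 5.45 in PGC, against 4.47, 4.88 and 5.07 in GSC (lowest, median and highest), and rose by 0.83 ± 0.15 (SE, limma adjusted p = 9.374e-04). COL4A2 measured 7.73, 7.73 and 7.83 in PGC, against 7.20, 7.23 and 7.35 in GSC, and rose by 0.52 ± 0.09 (adjusted p = 5.617e-04). Both fractions were tight for COL4A2 (SD 0.06 each), so this 1.44-fold difference was larger than the spread in either. The PGC arrays lay above all GSC arrays for both genes.

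The other pair went the opposite way. COL4A5 measured 7.42, 7.81 and 8.67 in PGC, against 9.37, 9.47 and 9.60 in GSC, a 2.85-fold fall (log2 fold change -1.51 ± 0.21 SE, adjusted p = 1.946e-04). COL4A6 measured 5.74, 6.13 and 6.98 in PGC, against 7.55, 7.82 and 7.95 in GSC, and was 2.81-fold lower (-1.49 ± 0.22). The COL4A5 value minus the COL4A6 value was 1.68, 1.68 and 1.69 in the PGC arrays, so the genes differed from each other by nearly the same amount there, while it ran from 1.50 to 1.91 in the GSC arrays. By contrast, COL4A5 minus COL4A1 was 1.55, 2.10 and 3.22 in PGC, against 4.33 to 4.98 in GSC. Such a difference within an array shows unequal change of the genes and says nothing of their relative amounts.

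The third pair was divided. COL4A4 measured 4.01, 3.94 and 3.71 in PGC, against 2.32, 2.69 and 3.02 in GSC, where 5 of 6 arrays were below the reporter mark. It was at least 1.98-fold higher in PGC (fitted log2 fold change 1.23 ± 0.15 SE, adjusted p = 8.981e-05) and has 1 probe set. COL4A3 measured 3.41, 3.21 and 3.42 in PGC and 3.22 to 3.72 in GSC and did not pass (-0.13 ± 0.14, adjusted p = 0.506). Whether the changes of COL4A4 and COL4A3 differ was not tested.

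Markers of other cell types also differed between the fractions, in both directions. Of 8 measured genes listed for the epithelium of the mesonephros, the embryonic kidney beside the gonad, 6 were higher in PGC (22.5% of all genes) and 2 lower (19.5%). Among the 6, CDH1 (3.34) is not restricted to the kidney. The summed log2 level of all 8 was 50.33 to 54.34 in PGC and 32.55 to 37.04 in GSC. Endothelial markers, from cells that make much COL4A1 and COL4A2, went down: 8 of 10 were lower in PGC (19.5% of all genes) and 0 higher (22.5%). Their summed log2 level was 36.63 to 49.53 in PGC and 53.54 to 57.84 in GSC. In the kidney list, HNF4A was below the reporter mark in all 6 GSC arrays, and no member was below it in all 3 PGC arrays. The 2 kidney markers lower in PGC were PAX2 (-0.62) and UMOD (-1.32). The part of either cell type in the type IV values was not tested.

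The multiplexins, which join basement membranes to the matrix beneath them, differed less between the fractions. COL18A1, the source of endostatin, measured 8.26, 8.46 and 8.95 in PGC, against 8.87, 8.93 and 9.18 in GSC. PGC replicate 3 lay within the GSC range, and the call (-0.41 ± 0.14 SE, limma adjusted p = 0.0394) was lost when any array other than PGC replicate 3 was left out, with changes of -0.60 to -0.26 over the 9 omissions. COL15A1 measured 3.10, 2.87 and 2.72 in PGC and 2.40 to 3.45 in GSC, around the reporter mark, and did not pass.

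**Figure D3:**
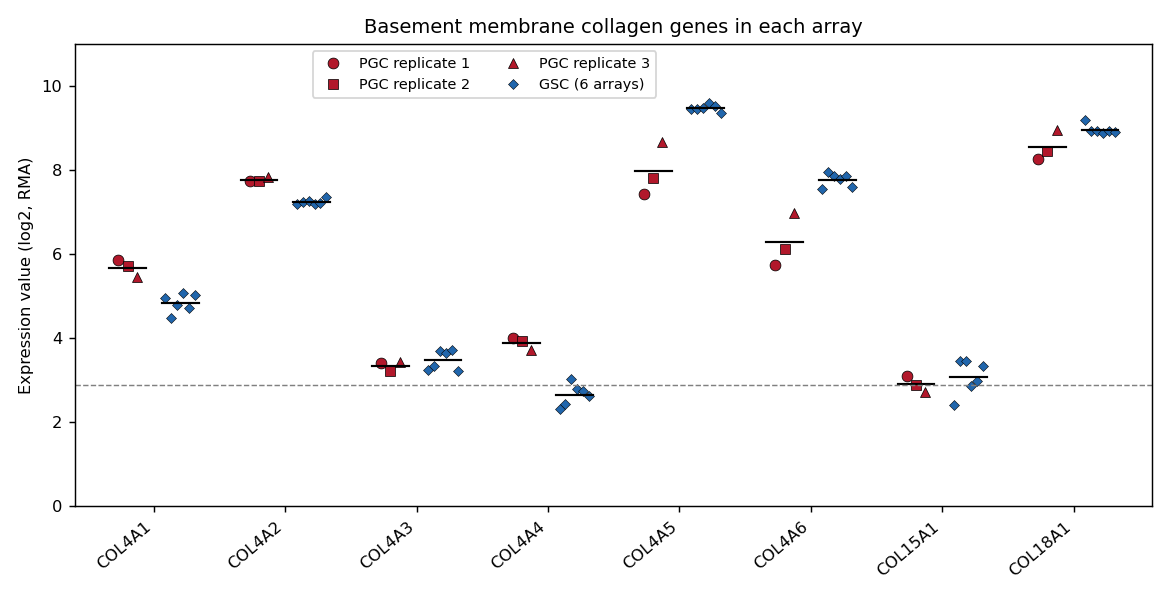
Log2 expression value (y axis) of the 8 basement membrane collagens in each array, drawn with the same symbols; short black lines are means and the dashed line is the reporter mark of 2.88. COL4A1, COL4A2 and COL4A4 have all PGC arrays above all GSC arrays, and COL4A5 and COL4A6 have all of them below.

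Type VI collagen forms beaded microfibrils close to cells, and its 3 classical chains were lower in PGC together. COL6A1 measured 5.26, 5.00 and 6.66 in PGC, against 7.20, 7.26 and 7.33 in GSC, and fell by 1.61 ± 0.28 (SE, limma adjusted p = 8.241e-04). COL6A2, its neighbour in the RefSeq table, measured 5.97, 6.22 and 7.74 in PGC and 8.10 to 8.58 in GSC (-1.70 ± 0.31). COL6A3, the longest chain, had the largest fitted fall of the family when each gene was read from its brightest probe set: 5.32, 5.92 and 7.41 in PGC, against 7.85, 8.25 and 8.34 in GSC, a 3.89-fold difference (-1.96 ± 0.34, adjusted p = 8.834e-04, and -2.55 without PGC replicate 3). With the mean of both its probe sets, of which the other lay below the reporter mark in all arrays, the change of COL6A3 was -1.04, and that of COL12A1 was then -1.72. No PGC array reached the GSC range for any of these genes. COL6A6, an alternative partner of COL6A1 and COL6A2, was below the reporter mark in all 9 arrays.

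Fibril-associated collagens sit on the surface of fibrils and carry interrupted triple helices. Of 10 measured, 4 were lower in PGC (19.5% of all genes), 0 were higher (22.5%) and 6 did not pass. COL12A1, which binds type I fibrils, measured 5.52, 5.79 and 6.72 in PGC, against 7.75, 7.84 and 8.05 in GSC, and was 3.60-fold lower (log2 fold change -1.85 ± 0.21 SE, limma adjusted p = 5.405e-05). COL14A1, a close relative of COL12A1, measured 4.96, 5.34 and 5.43 in PGC and 6.31 to 6.92 in GSC (-1.34 ± 0.16). Both fractions were about equally tight for COL14A1 (SD 0.25 in PGC and 0.24 in GSC), unlike most of the collagens that fell. COL9A1, of cartilage type IX collagen, measured 3.68, 3.87 and 4.00 in PGC, against 4.12, 4.42 and 5.30 in GSC. Its call (-0.71 ± 0.23, adjusted p = 0.0260) was lost without PGC replicate 1, PGC replicate 2 or GSC replicate 2. COL21A1 was called lower (-0.44), but lay below the reporter mark in all 9 arrays, so its size carries no meaning. COL9A2, COL9A3, COL16A1, COL19A1, COL20A1 and COL22A1 had changes of -0.25 to 0.40 and did not pass, and without PGC replicate 3 COL9A3 was called higher (0.60, adjusted p = 0.0200).

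Of the short-chain network collagens, COL8A1, a chain of the type VIII collagen of vessel walls and the cornea, measured 3.76, 4.18 and 5.50 in PGC, against 6.02, 6.29 and 6.57 in GSC. It was 3.52-fold lower with no overlap (-1.82 ± 0.30 SE, limma adjusted p = 5.929e-04). COL8A2 and the hypertrophic cartilage gene COL10A1 were below the reporter mark in all arrays. Among the transmembrane collagens, COL23A1 measured 3.71, 4.00 and 4.71 in PGC and 5.39 to 5.78 in GSC, and fell by 1.41 ± 0.19 (adjusted p = 1.589e-04). COL13A1 (-0.30) and COL17A1, the hemidesmosomal collagen (0.24), did not pass, and COL25A1 was below the mark throughout. Without PGC replicate 3, COL13A1 was called lower (-0.56, adjusted p = 0.0030).

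The remaining genes were dim. COL26A1, first described in mouse testis and ovary, measured 2.58, 2.79 and 2.91 in PGC and 3.10 to 3.34 in GSC. It was at least 1.25-fold lower with no overlap, although 2 of 3 PGC arrays were below the reporter mark (fitted change -0.45 ± 0.10 SE, limma adjusted p = 0.0050). COL7A1, of the anchoring fibrils under epithelia, had a change of -0.34 and COL28A1 of -0.46, and neither passed. COL7A1 was called lower without PGC replicate 3 (-0.49, adjusted p = 0.0122) and COL28A1 without GSC replicate 1 (-0.58, adjusted p = 0.0217).

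The PGC arrays differed among themselves in the collagens more than the GSC arrays did. Among the 22 collagens lower in PGC, the median SD was 0.64 in PGC and 0.16 in GSC. The PGC SD exceeded the GSC SD in 20 of them, and in 1923 of all 2543 genes lower in PGC. PGC replicate 3 was the highest PGC array for 21 of the 22, the exception being COL21A1. Over all 2543 genes lower in PGC it was the highest in 65.8%. The median distance from the GSC mean over these 22 collagens was -1.88 for PGC replicate 1, -1.71 for replicate 2 and -0.62 for replicate 3. Over all 2543 genes lower in PGC these medians were -0.90, -0.79 and -0.54. In the 788 genes that fell at least 2-fold they were -1.70, -1.45 and -0.89. The spread of a gene over the PGC arrays therefore bears on the standard errors, which assume a common spread. With a separate weight for each fraction, shared by all genes, 20 collagens were lower and 3 higher (15.2% and 18.5% of all genes). Such a weight does not follow the wider PGC spread of the lower collagens. Over all 2543 genes lower in PGC the median SD was 0.30 in PGC and 0.17 in GSC. The standard errors and adjusted p-values given for collagens with a wide PGC spread can therefore be too small.

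PGC replicate 3 was also the highest or lowest PGC array in several lists of cell markers. The summed log2 level of the 13 gonadal somatic markers was 66.65 to 84.16 in PGC and 93.00 to 95.99 in GSC, with the top PGC value in replicate 3, and no member was below the reporter mark in all 3 PGC arrays. The 10 germ cell markers summed to 74.83 to 83.08 in PGC, with the lowest value in replicate 3, and to 39.74 to 43.01 in GSC, where TDRD5 and CXCR4 were below the mark in all arrays. Of 6 smooth muscle markers 1 was lower in PGC (16.7%), near the share of all genes (19.5%). Their summed level was 22.50 to 25.52 in PGC and 25.82 to 27.52 in GSC, with ACTA2 and MYH11 below the mark in all 9 arrays. The chondrocyte and endothelial sums were highest in replicate 3 among the PGC arrays as well, whereas the mesonephros sum was highest in replicate 2 (54.34) and lowest in replicate 1 (50.33). The mean endothelial level was 3.66, 4.48 and 4.95 in PGC replicates 1, 2 and 3, so replicate 2 lay nearer to replicate 3 than to replicate 1. The part of these cells in the PGC collagen values was not tested. Without PGC replicate 3, 24 collagens were lower and 4 higher (22.9% and 25.5% of all genes), and every collagen called over all arrays kept its call.

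**Figure D4:**
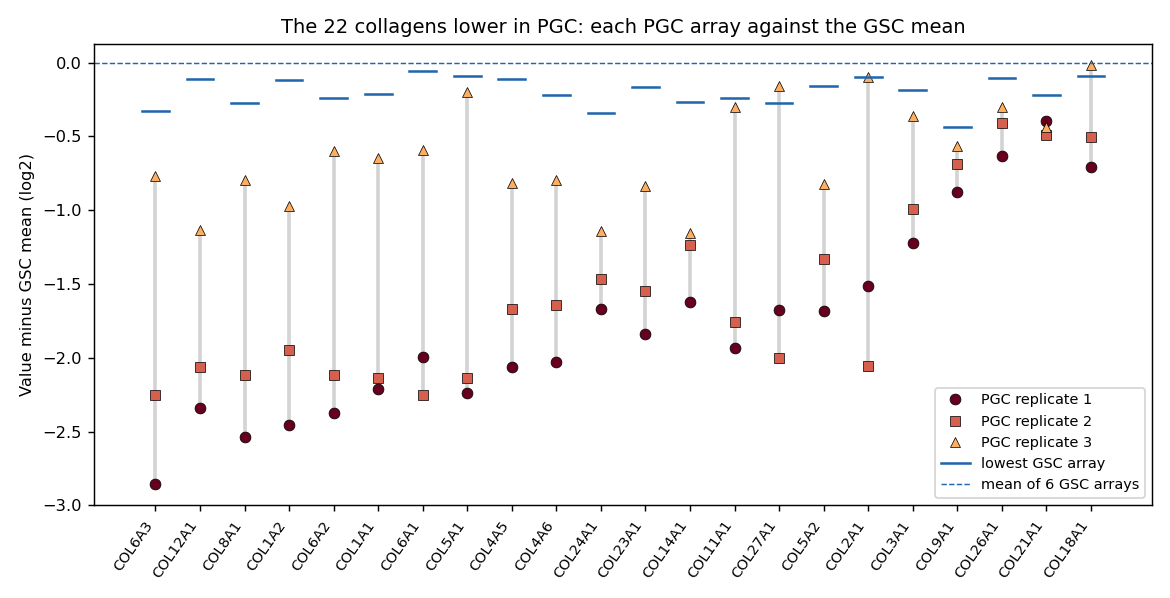
Value of each PGC array minus the mean of the 6 GSC arrays (y axis, log2) for the 22 collagens lower in PGC, ordered by fitted change; blue bars mark the lowest GSC array. PGC replicate 3 (triangles) lies nearest to the GSC mean for 21 genes, and COL5A1 and COL27A1 show some of the widest gaps between the PGC arrays.

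More than 1 probe set measured 31 of the 41 genes. Of these 31, 22 had called probe sets in 1 direction only and 0 had them in opposite directions. A gene with at most 1 called probe set, such as COL4A1 or COL9A1, could not show opposite calls. Of the 121 collagen probe sets, 49 were lower in PGC (14.6% of all probe sets tested) and 6 were higher (13.8%). COL1A2 had 8 probe sets, of which 6 were lower and 2, both below the reporter mark in all arrays, did not pass. COL3A1 had 5 of 6 lower, with a change as large as -1.57 in a dimmer probe set, against -0.86 in its brightest. COL12A1 had 4 of 4 lower, with changes of -2.58 to -0.65. For COL3A1 and for COL12A1, 1 of the lower probe sets was below the reporter mark in all arrays. For COL1A2, 1 of the lower probe sets was below it in all 3 PGC and 4 of 6 GSC arrays. COL4A5 had 4 of 4 lower (-2.25 to -0.55). Other falls rested on fewer, among them COL9A1 and COL23A1 with 1 of 3 lower and COL14A1 with 2 of 6. COL2A1 had 2 of 5 lower, and COL6A2 and COL6A3 had 1 of 2 each. A COL23A1 probe set above the reporter mark in all arrays had a change of -0.09 and did not pass. The rise of the common type IV chains also rested on few: 1 of 3 probe sets was higher for COL4A1 and 3 of 6 for COL4A2, and 0 were lower. With the mean of all probe sets of a gene, COL4A1 kept its call (0.36) and COL4A2 lost it (0.22). All 22 lower collagens kept theirs, but the change moved by over 1.5 times on the log2 scale for 10 of them. It was -1.07 for COL1A2, -0.98 for COL6A2, -1.04 for COL6A3 and -0.88 for COL8A1. It was -0.58 for COL2A1, -0.61 for COL11A1, -0.52 for COL14A1 and -0.54 for COL23A1. For COL9A1 it was -0.27 and for COL26A1 -0.25. COL19A1, which did not pass, had 1 dimmer probe set called higher (0.51) that lay below the mark in all arrays.

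**Figure D5:**
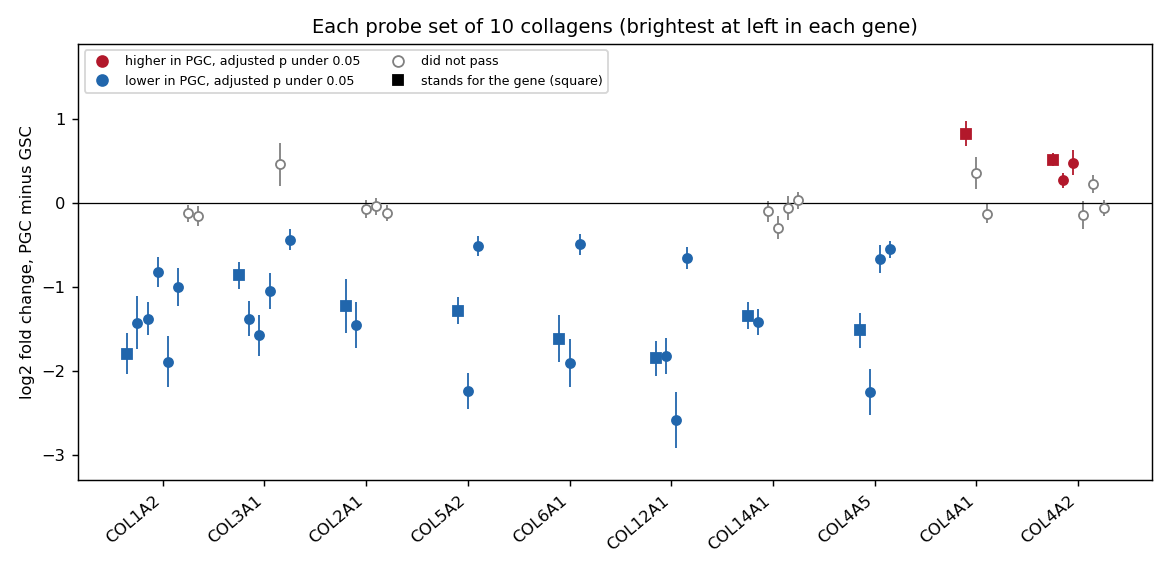
Log2 fold change (PGC minus GSC, y axis, bars are moderated standard errors) of every probe set of 10 collagen genes, the brightest probe set at the left of each gene and drawn as a square; the genes were picked after their values had been seen. Called probe sets of a gene lie on 1 side of 0, and the brightest is not always the one with the widest change: for COL12A1 a dimmer probe set reaches -2.58.

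Of 31 measured genes that fold, modify and process collagen, 15 were lower in PGC (19.5% of all genes) and 3 higher (22.5%). Their median change was -0.42. FKBP14, among the 15 lower, lay below the reporter mark in all 9 arrays. The largest falls were in ADAMTS3, a protease of the group that trims procollagen ends (-2.06 ± 0.27 SE), PLOD1, a lysyl hydroxylase (-1.52 ± 0.25), LOXL2, a cross-linking lysyl oxidase (-1.28 ± 0.28), and P3H4, a partner of the prolyl 3-hydroxylases (-1.28 ± 0.40). The P3H4 call was lost without PGC replicate 1 or PGC replicate 2, and its change was -2.00 without PGC replicate 3. For P3H4, PGC replicate 3 alone reached the GSC range (5.87, against 5.38 to 5.93 in GSC). SERPINH1, the collagen chaperone HSP47, measured 6.83, 7.22 and 7.78 in PGC, against 8.25 to 8.68 in GSC (-1.13 ± 0.19, limma adjusted p = 5.614e-04). PXDN, the peroxidase that cross-links the type IV network, fell by 1.24. The prolyl 4-hydroxylase subunits P4HA1 (-0.10), P4HA2 (0.24) and P4HB (-0.10) did not pass. PCOLCE2, an enhancer of procollagen cleavage, was at least 2.03-fold higher with every GSC array under the reporter mark, LOXL1 rose by 0.74 and COLGALT1, a galactosyltransferase acting on collagen, by 0.51, a call lost without PGC replicate 1 (0.31).

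Collagen receptors were lower in PGC in 7 of 9 measured members (19.5% of all genes) and higher in 0 (22.5%). Among the 7, ADGRG6 lay below the reporter mark in all 9 arrays, so the size of its change carries no meaning. ITGA2, the integrin subunit that binds collagens, measured 5.66, 5.84 and 5.88 in PGC and 6.91 to 7.68 in GSC (-1.41 ± 0.16 SE). DDR2, a receptor kinase for fibrillar collagen, fell by 1.23 ± 0.19, the adhesion receptor ADGRG1, which binds type III collagen, by 1.11 ± 0.31, and ITGA1 by 0.98 ± 0.29. For ADGRG1, PGC replicate 3 alone reached the GSC range (5.54, against 5.37 to 5.95 in GSC). For ITGA1, PGC replicate 2 alone did so (5.14, against 5.13 to 6.11 in GSC). ITGB1, the common partner of ITGA1 and ITGA2, fell by 0.71. Without PGC replicate 1, 3 receptors remained called (ITGA2, ITGB1 and DDR2), and without PGC replicate 2, 4 did (these and ITGA1).

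The 32 other matrix genes encode proteins that bind collagen fibrils or are linked, directly or indirectly, to the type IV network. Of these, 18 were lower in PGC (19.5% of all genes) and 2 higher (22.5%), with a median change of -0.52. OGN, a small proteoglycan below the mark in all 3 PGC arrays, was at least 4.50-fold lower, and the laminin chain LAMA4 (-2.41), periostin, POSTN (-2.13), and lumican, LUM (-2.01), fell as well. NID1, which links laminin to the type IV network, measured 7.54, 7.74 and 7.43 in PGC and 6.62 to 7.01 in GSC, a rise of 0.73 ± 0.13 (SE) without overlap. MATN3, a matrilin, was the other gene called higher (0.73). All GSC arrays and 2 of 3 PGC arrays were below the mark for it, and its call was lost without PGC replicate 1 (0.31) or without GSC replicate 1, 2 or 3.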

How the data were processed

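The authors' deposited table holds 1 log2 value per probe set and array, which per the submitters' processing notes came from RMA, with no version named; the log2 scale was read from the range of the values, 0.79 to 12.39. RMA compresses low values, which makes folds of dim genes too small, and detection calls were not used. The 96 AFFX control probe sets were left out, and 38439 probe sets were tested. The platform annotation gave 1 symbol for 27168 of them, several for 177 and none for 11094; only the first kind was named, and 26853 matched a RefSeq entry by Entrez identifier (0 symbols changed). Changes were fitted on fraction alone over all 9 arrays with limma 3.58.1 in R 4.3.3 (lmFit and eBayes, two-sided), and adjusted by Benjamini and Hochberg over all genes or all probe sets. The fit was run first on simulated data with the same spread in both fractions. That run cannot show how the fit behaves where the PGC spread is wider. Array medians were 3.03 to 3.12, and precision is limited by how few arrays there are.

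The members, classes, companion lists and named genes were chosen with earlier results of these data known. Every collagen was to be accounted for, and of each companion list up to 4 called members with the largest rise and fall, plus partners of named collagens, were named. Of 38 processing, 12 receptor and 33 other matrix genes listed, 31, 9 and 32 were measured. Replicates 1 to 3 of PGC and GSC share numbers, but deviations from the fraction means correlated at 0.19, -0.13 and -0.01 for replicates 1, 2 and 3, so the numbers were not taken as pairs.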

Additional observations from a re-analysis of the deposited data

Results flagged for a closer look

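Among the 6 GSC arrays, 1 array stood apart from the other 5 by Dixon's criterion for 3 of the 41 collagens, where chance gives about 1 in 20 groups. COL18A1 measured 9.18 in GSC replicate 1, against 8.94 in the next array and 8.87 in the lowest. COL22A1 measured 2.55 in GSC replicate 3, against 2.93 in the next array and 3.13 in the highest. COL25A1, below the reporter mark in all arrays, measured 2.00 in GSC replicate 1, against 1.94 in the next.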

How the results depend on the processing

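Of the 25 called collagens, 16 (14 lower and 2 higher in PGC) kept their call and direction under all alternatives run. Over the omissions of 1 array, 19 to 24 collagens were lower and 3 to 4 higher. Of all genes, 14.7% to 22.9% were then lower and 17.7% to 25.5% higher. Renewed quantile normalization, centring and the trended prior left 22 collagens lower and 3 higher (18.6% to 20.4% and 22.4% to 22.9% of all genes). With dim genes left out, 21 were lower and 3 higher (24.5% and 26.3% of the genes tested), fewer genes being tested, and COL21A1 was among those left out. With the mean of all probe sets, 22 were lower and 2 higher (19.6% and 21.5% of all genes). The change moved by over 1.5 times for 10 of the lower collagens, COL6A3 (-1.04), COL14A1 (-0.52) and COL23A1 (-0.54) among them, and for COL4A1 and COL4A2. With the replicate block (replicates 1 to 3 of both fractions, 6 arrays), 14 collagens and 31 collagen probe sets were lower, as were 8 processing genes and 3 receptors, and 1 associated matrix gene was higher. Of all genes, 9.89% were lower and 14.2% higher with the block. The fibrillar genes COL2A1, COL5A1, COL11A1 and COL27A1 were among the collagens that lost their call with it. The same 6 arrays without the block gave 16 lower and 4 higher collagens (11.8% and 14.3% of all genes). Over the omissions, 3 to 7 receptors were lower and 1 to 2 associated matrix genes higher. No collagen that was called changed sign. Collagens that did not pass changed sign as follows: COL4A3 to 0.038 and COL22A1 to -0.054 with the mean of all probe sets. With the replicate block and with its 6 arrays unblocked, COL6A6 (-0.026), COL8A2 (-0.052), COL9A2 (0.063) and COL10A1 (-0.018) did so. Over the omissions COL6A6 ran from -0.022 to 0.052, COL8A2 from -0.051 to 0.089, COL9A2 from -0.14 to 0.13, COL10A1 from -0.021 to 0.050 and COL25A1 from -0.10 to 0.17. The cause of these moves was not tested. Values below the reporter mark limit what can be read of the dim collagens.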

Other observations

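Several collagen genes are neighbours in the RefSeq gene table with no protein-coding gene between them, beside the type IV pairs. COL3A1 and COL5A2, both fibrillar, were both lower in PGC (-0.86 and -1.28 on the log2 scale), as were COL6A1 and COL6A2 (-1.61 and -1.70). COL9A1 was lower (-0.71), while its neighbour COL19A1 did not pass (0.11). No test of neighbouring genes was made.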
